A study of Mus musculus with 34 samples.

Results

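The genes described here are the ligands and receptors of the classical guidance families, taken by symbol: 20 semaphorins, 9 plexins, 2 neuropilins, 3 slits, 4 Robo receptors, 5 netrins, 5 netrin receptors and 8 ephrins. Of the 56 symbols, 55 matched 1 of the 51826 gene IDs in the count tables, and Ntn3 was not analysed here. RNA sequencing of polyadenylated RNA had been done on cells sorted from mouse tissues, in 34 libraries that fell into 12 groups. All sorted cells were negative for CD45 (leukocytes), CD31 (endothelium) and Epcam (epithelium), positive for podoplanin (PDPN), and labelled as GFP-negative.

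The first cell type was the PDGFRA-negative fraction, labelled as mesothelial cells, with 3 libraries each from omentum, mesentery and epididymal fat. The other was the PDGFRA-positive fraction, labelled as fibroblasts, with 3 libraries each from bone, lymph node, brown adipose tissue, inguinal fat and the same 3 visceral depots, and 2 each from pancreas and spleen. The labels place omentum, mesentery and epididymal fat in the visceral fat region, and inguinal fat and brown adipose tissue in the subcutaneous region. They give no strain, sex, age, animal number or pooling, and do not say what GFP marked. The p-values below therefore measure the spread between libraries, part of which may be technical. Because each library pools many sorted cells, fewer expressing cells and less RNA per cell cannot be told apart in any difference below.

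Guidance ligands were first described as cues that attract or repel growing axons, and the same genes act on migrating cells, on vessels and on the shape of epithelia and stroma. Semaphorins signal through plexins; the secreted class 3 semaphorins mostly need a neuropilin to hold ligand and plexin together, while Sema3e can bind Plxnd1 directly. Slits bind Robo receptors, netrin-1 binds Dcc and the Unc5 receptors, and ephrins are membrane-bound ligands of the Eph receptor kinases, so that they act between touching cells. Mesothelial cells form the flat epithelium-like layer that covers the organs and fat depots of the body cavities, and fibroblasts lie in the stroma under it.

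The promoters of 4 members on which the results turn are shown here with motifs found in them: Plxnb1 and Sema5a were higher in mesothelial cells, and Plxnd1 and Slit2 were lower. Each run holds 250 bases before and 50 bases after the annotated start, 300 bases in all, read 5′ to 3′ on the gene's own strand from RefSeq on build GRCm38.p6, and the capitals mark a motif match. Plxnb1 lies at chr9:109095186-109095485 on the plus strand and Sema5a at chr15:32244563-32244862 on the plus strand. Plxnd1 lies at chr6:115994956-115995255 on the minus strand and Slit2 at chr5:47982905-47983204 on the plus strand.
Plxnb1: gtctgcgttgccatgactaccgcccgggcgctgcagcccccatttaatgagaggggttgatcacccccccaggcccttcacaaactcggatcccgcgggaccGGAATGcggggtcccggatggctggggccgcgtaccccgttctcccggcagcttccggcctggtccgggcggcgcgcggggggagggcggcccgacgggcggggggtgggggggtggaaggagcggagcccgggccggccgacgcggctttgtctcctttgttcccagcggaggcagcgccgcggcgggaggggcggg
Sema5a: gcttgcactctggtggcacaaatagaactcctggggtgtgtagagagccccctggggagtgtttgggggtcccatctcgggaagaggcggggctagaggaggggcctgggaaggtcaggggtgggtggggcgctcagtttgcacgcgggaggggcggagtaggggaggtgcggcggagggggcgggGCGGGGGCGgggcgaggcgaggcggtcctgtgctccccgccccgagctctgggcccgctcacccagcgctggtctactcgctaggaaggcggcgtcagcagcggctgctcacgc
Plxnd1: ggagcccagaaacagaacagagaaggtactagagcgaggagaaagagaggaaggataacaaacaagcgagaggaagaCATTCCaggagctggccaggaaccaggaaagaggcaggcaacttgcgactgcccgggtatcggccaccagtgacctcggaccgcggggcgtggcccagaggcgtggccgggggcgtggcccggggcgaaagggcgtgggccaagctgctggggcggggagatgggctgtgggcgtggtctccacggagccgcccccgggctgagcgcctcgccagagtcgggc
Slit2: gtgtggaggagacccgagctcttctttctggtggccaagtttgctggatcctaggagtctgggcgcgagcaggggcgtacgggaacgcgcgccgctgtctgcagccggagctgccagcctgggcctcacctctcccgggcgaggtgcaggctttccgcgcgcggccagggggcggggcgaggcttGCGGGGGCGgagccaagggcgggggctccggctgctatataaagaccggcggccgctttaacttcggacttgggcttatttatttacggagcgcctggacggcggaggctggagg

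Both strands were searched for 2 motifs, the TEAD core GGAATG and the EGR/WT1-type core GCGGGGGCG, and neither motif contains the other. Plxnb1 holds the TEAD core on its own strand with its first base at -148 from the start site, and Plxnd1 holds it on the other strand at -173, where it reads CATTCC. Sema5a holds the EGR/WT1-type core at -64 and Slit2 at -65. The TEAD core was in 4817 of 32851 promoters of this length (14.7%) and in 7 of the 46 listed members with a promoter, among them 2 of the 9 members with a promoter that were higher in mesothelial cells and 2 of the 10 that were lower. The EGR/WT1-type core was in 955 promoters (2.91%) and in 5 of the 46 members, among them 1 of 9 higher and 2 of 10 lower. The shares over all promoters count each promoter alone, while a member was counted when any of its promoters held the motif. The member counts and those shares are thus not on the same unit. These matches describe letters in a window of each gene.

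Libraries held from 28651435 to 42335589 counts each. The 12 mesothelial markers summed to 10800 to 15700 CPM (per-million counts, scaled by trimmed means for single genes and unscaled for marker sums) in the mesothelial libraries and to 8.82 to 1010 CPM in fibroblasts. Pdgfra, a gene of the sort, stood at 4.43 to 13.5 CPM in mesothelial cells against 646 to 1360 CPM in fibroblasts of the same depots. The mesothelial markers and Pdgfra thus went with the labels. The 10 fibroblast markers, Pdgfra among them, separated the cell types less. They summed to 23000 to 29300 CPM in mesothelial libraries and 34100 to 49000 CPM in fibroblasts of the same depots. Over all fibroblast libraries they ran from 21500 to 177000 CPM, so mesothelial libraries overlapped fibroblasts of other tissues by this sum. Omentum fibroblasts carried 675 to 1010 CPM of the mesothelial markers, against 129 to 282 CPM in mesentery and epididymal fibroblasts. Transcripts of pancreatic acinar cells passed 1000 CPM in 11 libraries from omentum, mesentery, pancreas and spleen. Every library of omentum fibroblasts (1260 to 4410 CPM) and of pancreas fibroblasts (44600 and 158000 CPM) was among them. Neither group could therefore be kept when the acinar libraries were left out. Mesentery then kept only mesothelial library 3 and fibroblast library 2, and spleen only library 2. A call lost there cannot be told from the loss of libraries. For several results that rest on either kind of marker, those values are given beside them.

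Of the 55 members, 52 had enough counts to be tested, and Slit1, Robo3 and Efna3 did not. A group mean of at least 10 CPM was reached by 32 members and at least 100 CPM by 11, while 8 members stayed under 1 CPM in every group. The group with the highest mean was a mesothelial one for 14 members, 8 of them in mesentery, 4 in omentum and 2 in epididymal fat, and a fibroblast one for 41 members, 17 of them in bone and 7 in lymph node. Of the tested members, 16 were highest in bone. Most of the groups are fibroblast groups, and the same count was not made over all genes, so these numbers do not set the members apart. Divided by exon length, the highest mesothelial levels were those of Efna1 (80.2 CPM per kilobase), Efna5 (38.2), Sema3c (25.9), Plxnb2 (16.7) and Sema5a (11.9). In fibroblasts the highest were Sema3c (37.9 CPM per kilobase), Nrp1 (27.0), Slit3 (24.9), Efna5 (17.2) and Sema3b (11.5). Sema3c and Efna5 thus stood among the 5 highest of both cell types.

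**Figure D1:**
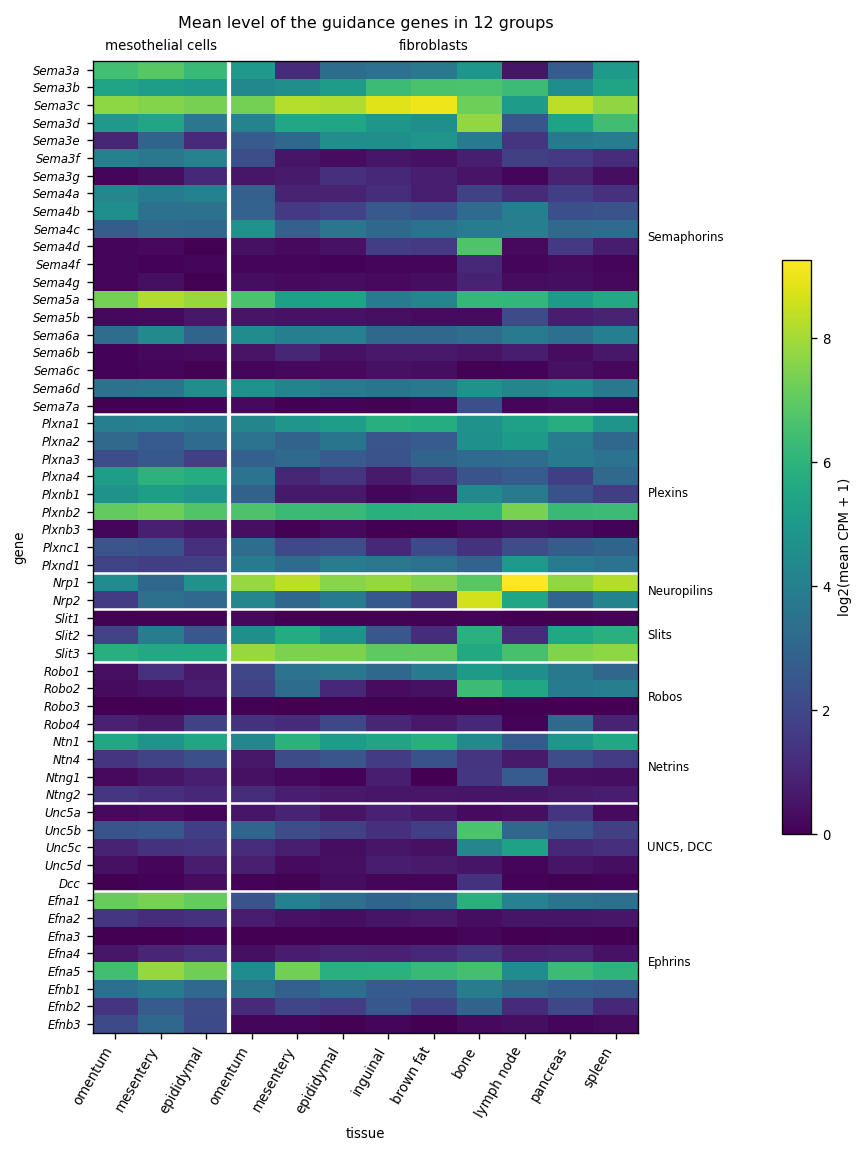
Mean level of the 55 members (rows, by role) in the 12 groups (columns, the 3 mesothelial groups on the left), as log2 of the group mean CPM plus 1. The columns for bone and lymph node fibroblasts hold the highest level of 17 and 7 members, and the mesothelial columns that of 14. The same count was not made over all genes.

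The first comparison set mesothelial cells against fibroblasts of the same depot, averaged over omentum, mesentery and epididymal fat. Several semaphorins and ephrins and the receptors Plxnb1 and Plxna4 were higher in mesothelial cells, while Nrp1, Robo1, Robo2, both tested slits and Plxnd1 were lower. With edgeR's quasi-likelihood test, a Benjamini-Hochberg adjusted p under 0.05 and a change of at least 1 on the log2 scale, 22 of 52 members were called, 12 higher and 10 lower. Over all 25705 genes tested, 21.4% were called, 12.3% higher and 9.08% lower. The median member stood at -0.34 log2, and the median gene at 0.11. Ligands gave 13 calls of 33, 9 higher and 4 lower, with a median of 0.17, and receptors 9 of 19, 3 higher and 6 lower, with a median of -0.68. In 13 of the 22 no mesothelial library overlapped a fibroblast library of these depots, as in 42.7% of all called genes.

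Sema3a, a secreted semaphorin that signals through Nrp1 and class A plexins, had 90.9, 85.0 and 90.9 CPM in omentum mesothelial cells, 106, 101 and 140.0 CPM in mesentery mesothelial cells and 80.4, 61.4 and 89.7 CPM in epididymal mesothelial cells. In fibroblasts it had 33.1, 33.1 and 27.3 CPM in omentum, 1.35, 1.48 and 0.546 CPM in mesentery and 8.1, 7.81 and 10.1 CPM in epididymal fat. Every mesothelial library lay above every fibroblast library, and among fibroblasts the 3 omentum libraries were the high ones. The mean difference was 3.78 ± 0.20 log2 (SE, adjusted p = 8.22e-17). The gene spans bases 13125414 to 13602565 of chromosome 5 on the plus strand of GRCm38. Sema3f, a secreted semaphorin that prefers Nrp2, ran from 8.28 to 21.3 CPM in mesothelial cells and from 0.0708 to 4.25 CPM in fibroblasts, without overlap, at 4.23 ± 0.27 log2 (adjusted p = 8.17e-15).

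Sema3e, the ligand of Plxnd1, went the other way in 2 depots. It had 1.06, 0.826 and 1.11 CPM in omentum mesothelial cells against 4.1, 6.09 and 5.88 CPM in omentum fibroblasts, and 1.57, 0.57 and 1.39 CPM in epididymal mesothelial cells against 21.3, 26.3 and 19.8 CPM in epididymal fibroblasts. In mesentery the cell types overlapped, at 7.37, 7.46 and 5.88 CPM in mesothelial cells and 5.26, 7.93 and 9.62 CPM in fibroblasts. Its mean difference was -2.26 ± 0.22 log2 (adjusted p = 2.94e-10). Sema3c, the semaphorin with the highest level per exon length in both cell types, was at 158 to 226 CPM in mesothelial cells and 149 to 321 CPM in fibroblasts, with a mean difference of -0.38 ± 0.11 log2 (adjusted p = 0.00457), below the size set for a call. Sema3d stood at 28.7 CPM in mesothelial cells and 35.3 CPM in fibroblasts on average, at -0.35 log2 (adjusted p = 0.0435), also uncalled. Among the 7 class 3 semaphorins, 2 were called higher and 1 lower.

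The membrane-bound semaphorins Sema4a, Sema4b and Sema5a were also higher in mesothelial cells. Sema5a, which carries thrombospondin repeats, ran from 102 to 350.0 CPM in mesothelial cells and from 29.1 to 115 CPM in fibroblasts, at 2.04 ± 0.13 log2 (adjusted p = 7.46e-15). Its overlap came from omentum, where mesothelial libraries 1 to 3 had 102, 149 and 226 CPM and fibroblast libraries 115, 93.3 and 88.3 CPM. Sema4a had 8.19 to 21.4 CPM in mesothelial cells and 0.208 to 9.09 CPM in fibroblasts, at 3.25 ± 0.29 log2 (adjusted p = 2.98e-11), the lowest mesothelial library being from mesentery and the highest fibroblast library from omentum. For Sema4b the ranges were 8.36 to 35.3 CPM in mesothelial cells and 1.71 to 8.26 CPM in fibroblasts, just apart, at 2.07 ± 0.20 log2 (adjusted p = 1.11e-10). The 10 leukocyte markers moved the same way as these members between the cell types. They summed to 636 to 776 CPM in omentum, 843 to 1860 CPM in mesentery and 106 to 251 CPM in epididymal mesothelial cells, against 399 to 561 CPM in omentum, 17.3 to 46.9 CPM in mesentery and 37.2 to 89.1 CPM in epididymal fibroblasts. None of the 10 was at 0 in all mesothelial libraries, and 3 stayed under 1 CPM in each of them. Ptprc, which encodes the CD45 of the sort, had 0.126 to 2.51 CPM in the mesothelial libraries and 0 to 5.1 CPM in fibroblasts of these depots, and the part of these cells in the members' differences was not tested.

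Among the ephrins, which are held in the membrane by a lipid anchor (A type) or a membrane-spanning stretch (B type), 4 of 7 tested members were higher and none was lower. Efna1 had 130, 182 and 101 CPM in omentum mesothelial cells, 135, 160.0 and 215 CPM in mesentery mesothelial cells and 125, 149 and 125 CPM in epididymal mesothelial cells. Fibroblasts had 3.93, 4.87 and 4.16 CPM in omentum, 19.2, 13.9 and 14.2 CPM in mesentery and 9.73, 8.7 and 10.9 CPM in epididymal fat. The lowest mesothelial library was thus several times above the highest fibroblast library, and the difference was 4.06 ± 0.19 log2 (adjusted p = 8.79e-18). Efna1 spans bases 89271733 to 89281142 of chromosome 3 on the minus strand.

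Efnb3 was the member with the largest mean difference, 5.68 ± 0.37 log2 (adjusted p = 8.48e-17), but at low level: 2.16 to 11.1 CPM in mesothelial cells and 0 to 0.121 CPM in fibroblasts. Efna5 averaged 154 CPM in mesothelial cells and 78 CPM in fibroblasts, with wide overlapping ranges of 35.0 to 362 CPM and 17.8 to 167 CPM, at 1.30 ± 0.22 log2 (adjusted p = 1.95e-05). Efna2 was at 1.52 CPM in mesothelial cells and 0.44 CPM in fibroblasts on average. The ephrins that did not pass were Efna4, Efnb1 and Efnb2.

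**Figure D2:**
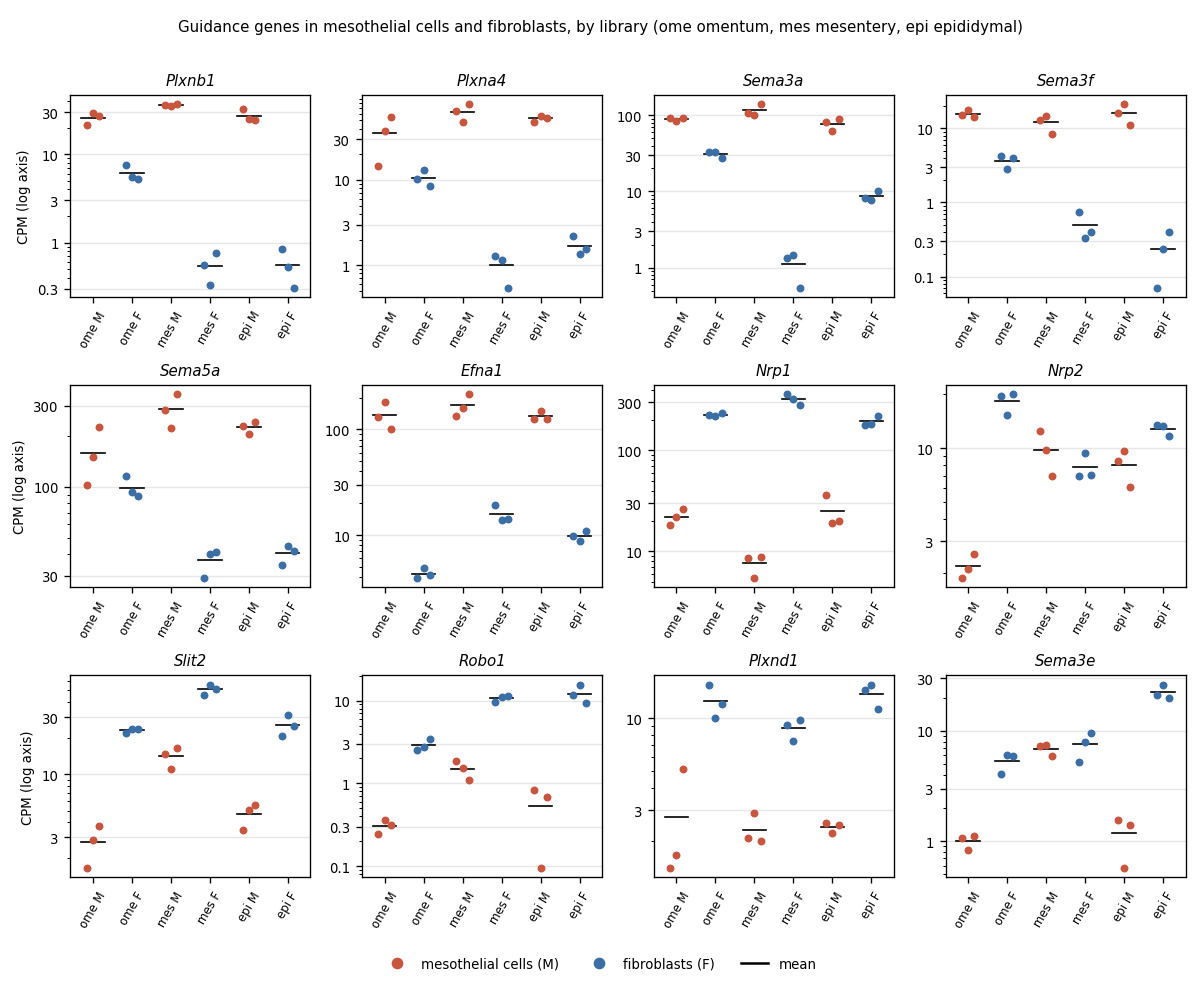
Level of 12 members in every library of omentum, mesentery and epididymal fat (CPM, log axis), with mesothelial cells left of fibroblasts in each depot and a bar at the mean of 3 libraries. Plxnb1, Plxna4, Sema3a, Sema3f and Efna1 sit higher in mesothelial cells in each depot, with omentum fibroblasts closest for all but Efna1, and Nrp1, Slit2, Robo1 and Plxnd1 sit lower.

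Of the receptors, 2 plexins were higher. Plxnb1, the receptor of Sema4d, had 21.4, 29.5 and 26.9 CPM in omentum mesothelial cells, 36.1, 35.0 and 36.9 CPM in mesentery mesothelial cells and 32.3, 25.3 and 24.1 CPM in epididymal mesothelial cells. In fibroblasts it had 7.6, 5.57 and 5.21 CPM in omentum, 0.555, 0.327 and 0.759 CPM in mesentery and 0.849, 0.535 and 0.309 CPM in epididymal fat. No library overlapped, and the difference was 4.57 ± 0.21 log2 (adjusted p = 4.74e-19). The transcribed region spans bases 109095389 to 109119917 of chromosome 9 on the plus strand. Its ligand Sema4d was at or under 0.463 CPM in every library of these 3 depots, in both cell types.

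Plxna4, a partner of Nrp1 in class 3 semaphorin receptors, had 14.4, 37.8 and 54.2 CPM in omentum mesothelial cells, 64.0, 48.2 and 77.7 CPM in mesentery mesothelial cells and 48.3, 56.8 and 53.4 CPM in epididymal mesothelial cells. Fibroblasts had 10.4, 13.0 and 8.55 CPM in omentum, 1.28, 1.16 and 0.546 CPM in mesentery and 2.19, 1.37 and 1.54 CPM in epididymal fat. The ranges did not overlap, although omentum mesothelial library 1 came close to the omentum fibroblasts, and the difference was 4.22 ± 0.20 log2 (adjusted p = 2.76e-18). Plxnb2, the plexin with the highest level per exon length, was at 129 CPM in mesothelial cells and 85.2 CPM in fibroblasts, 0.60 ± 0.10 log2, which is under the size set for a call.

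Plxnd1, the Sema3e receptor known from vessels, was lower in mesothelial cells, at 1.41 to 5.13 CPM against 7.39 to 15.5 CPM in fibroblasts (-2.20 ± 0.19 log2, adjusted p = 7.06e-12). Nrp1, which binds class 3 semaphorins and vascular endothelial growth factor, had 18.1, 21.7 and 26.1 CPM in omentum mesothelial cells, 8.58, 5.47 and 8.85 CPM in mesentery mesothelial cells and 35.8, 19.2 and 19.8 CPM in epididymal mesothelial cells. Fibroblasts had 224, 219 and 236 CPM in omentum, 359, 322 and 281 CPM in mesentery and 180.0, 184 and 217 CPM in epididymal fat. Its difference of -3.90 ± 0.13 log2 had the smallest adjusted p of the members (1.87e-22), and the highest mesothelial library stayed well under the lowest fibroblast library. Nrp1 spans bases 128358604 to 128503363 of chromosome 8 on the plus strand. The summed endothelial markers were at 44.2 to 135 CPM in mesothelial cells and 75.2 to 508 CPM in fibroblasts of these depots; their part in the Nrp1 and Plxnd1 differences was not tested.

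Nrp2 ran from 1.87 to 12.4 CPM in mesothelial cells and from 6.95 to 20 CPM in fibroblasts, at -1.14 ± 0.15 log2 (adjusted p = 2.14e-07). That call rested on omentum, at 1.87, 2.09 and 2.55 CPM in mesothelial cells and 19.7, 15.4 and 20 CPM in fibroblasts (-3.07 ± 0.29 log2, adjusted p = 4.16e-10). Mesentery gave 0.32 log2 (adjusted p = 0.447) and epididymal fat -0.67 log2 (adjusted p = 0.046). Leaving out the libraries that reached 1000 acinar CPM keeps epididymal fat, and in mesentery only mesothelial library 3 and fibroblast library 2. The mean was then -0.67 log2.

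In the slit pathway both ligands and 2 receptors were lower in mesothelial cells. Slit2 had 1.66, 2.84 and 3.71 CPM in omentum mesothelial cells, 14.7, 11.1 and 16.7 CPM in mesentery mesothelial cells and 3.44, 5.1 and 5.52 CPM in epididymal mesothelial cells, against 21.9, 24.0 and 23.9 CPM, 46.1, 55.9 and 51.6 CPM, and 20.7, 31.1 and 25.2 CPM in fibroblasts of the same depots in that order. Each depot's mesothelial libraries lay under its fibroblast libraries, and mesentery was the high depot of both cell types (-2.46 ± 0.17 log2, adjusted p = 3.72e-14). Slit3 was at 35.2 to 69.0 CPM in mesothelial cells and 154 to 239 CPM in fibroblasts (-1.91 ± 0.14 log2, adjusted p = 9.93e-14). Robo1 was at 0.095 to 1.88 CPM in mesothelial cells and 2.53 to 15.6 CPM in fibroblasts (-3.49 ± 0.19 log2, adjusted p = 2.28e-16).

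Robo2 averaged 0.428 CPM in mesothelial cells and 4.07 CPM in fibroblasts (-2.87 ± 0.34 log2, adjusted p = 1.85e-08), with an overlap that came from epididymal fat. Robo4, the Robo receptor known from endothelium, was not called. Of the netrin receptors, Unc5c passed at 1.02 ± 0.32 log2 (adjusted p = 0.0119) with 1.35 CPM in mesothelial cells and 0.754 CPM in fibroblasts. It fell to 0.87 to 0.99 log2 when any 1 of 10 libraries was left out: omentum mesothelial 3, mesentery mesothelial 1 and 3, epididymal mesothelial 1 and 3, omentum fibroblast 2 and 3, mesentery fibroblast 2 and 3, and epididymal fibroblast 2. Unc5c was also under the size for a call with other size factors (0.97 log2), no filter (0.95), DESeq2 (0.98) and only the libraries compared (0.94). Unc5a and Sema6b were called lower at means under 0.6 CPM in both cell types. Without the acinar libraries Unc5a stood at -1.93 log2 and Sema6b at -1.08 log2. That fit keeps only mesothelial library 3 and fibroblast library 2 of mesentery. Reads of Unc5a could not be told from those of Hk3 where their exons overlap on opposite strands, since the counting strand is not given in the sources used here. The same holds for the exon bases that lie opposite another gene, which made up 14.1% in Efna3, 10.7% in Plxna1, 10.5% in Efna4, 7.27% in Sema4c, 2.68% in Plxnb1, 0.78% in Plxna4 and 0.617% in Unc5c.

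Within single depots, omentum gave 24 calls of 52, 13 of members higher and 11 of members lower in mesothelial cells, where 16.9% of all genes were called, 8.1% higher and 8.79% lower. Mesentery gave 21 calls, of which 13 were higher and 8 lower, where 18.3% of genes were called, 10.8% higher and 7.53% lower. Epididymal fat gave 24, of which 13 were higher and 11 lower, where 24.7% of genes were called, 16.6% higher and 8.16% lower. All 24 in omentum, 20 of 21 in mesentery and all 24 in epididymal fat had no overlap between the 3 mesothelial and the 3 fibroblast libraries, as had 96.1%, 96.0% and 93.9% of all genes called in omentum, mesentery and epididymal fat. Higher in all 3 depots were Efna1, Efna2, Efnb3, Plxna4, Plxnb1, Sema3a, Sema3f, Sema4a and Sema4b. Lower in all 3 were Nrp1, Plxnd1, Robo1, Slit2 and Slit3. In omentum, Sema4a was no longer called without fibroblast library 2 (1.25 log2, adjusted p = 0.0889), and Efna2 without fibroblast library 2 or 3 (adjusted p = 0.0559 to 0.0685). Efna2 in mesentery stood at 1.79 log2 without the acinar libraries, with only mesothelial library 3 against fibroblast library 2. Sema3c, Plxnb2 and Unc5b were among the members called in none of the 3 depots.

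The size of the difference itself varied by depot for many of these genes. A test of the mesothelial-to-fibroblast difference between the 3 depots called 22 of 52 members, where 10.9% of all genes were called. For Sema3a the difference was 1.51 ± 0.30 log2 in omentum, 6.66 ± 0.40 in mesentery and 3.15 ± 0.33 in epididymal fat (adjusted p of the difference between depots = 1.37e-08). Plxna4 stood at 1.74 ± 0.30, 5.97 ± 0.38 and 4.96 ± 0.36 log2 in the same order (adjusted p = 7.95e-08), and Plxnb1 at 2.08 ± 0.30, 6.03 ± 0.39 and 5.61 ± 0.40 log2 (adjusted p = 2.08e-07). In all 3 genes the omentum fibroblasts were far above the fibroblasts of the other 2 depots. The mesothelial means of the depots differed less, at 77.2 to 116 CPM for Sema3a, 35.5 to 63.3 CPM for Plxna4 and 25.9 to 36.0 CPM for Plxnb1. Omentum had the lowest mesothelial mean for Plxna4 and Plxnb1.

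Omentum fibroblasts held 7.86% of the mesothelial marker sum of omentum mesothelial cells. The same ratio was 35.0% for Sema3a, 29.9% for Plxna4, 23.6% for Plxnb1, 23.5% for Sema3f and 33.1% for Sema4a, but 3.14% for Efna1 and 3.08% for Efnb3. In mesentery the ratio was 1.21% for the markers, 0.975% for Sema3a, 1.57% for Plxna4 and 1.52% for Plxnb1, and in epididymal fat it was 1.75% for the markers, 11.2% for Sema3a, 3.22% for Plxna4 and 2.07% for Plxnb1. The semaphorins and plexins named for omentum thus had a larger share than the marker list and the 2 ephrins a smaller one. The part of mesothelial RNA in the fibroblast values was not tested.

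Nrp1 differed by -3.36 ± 0.21 log2 in omentum, -5.39 ± 0.24 in mesentery and -2.96 ± 0.21 in epididymal fat (adjusted p of the difference = 2.7e-07), with mesentery mesothelial cells as the low group. Sema3e gave -2.42 ± 0.42, -0.13 ± 0.34 and -4.23 ± 0.40 log2 (adjusted p = 4.4e-06). Sema5a gave 0.69 ± 0.22, 2.95 ± 0.23 and 2.47 ± 0.23 log2 (adjusted p = 6.71e-06), so that omentum alone was under the size for a call. Sema3d gave 0.90 ± 0.24, -0.11 ± 0.23 and -1.83 ± 0.24 log2 (adjusted p = 2.38e-06), with a call in epididymal fat only.

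The membrane semaphorins Sema4c, Sema6a and Sema6d were lower in mesothelial cells of omentum. Sema4c had 4.97, 4.32 and 7.42 CPM in omentum mesothelial cells against 25.1, 20.2 and 30.5 CPM in omentum fibroblasts (-2.18 ± 0.34 log2, adjusted p = 7.58e-06), and no call in the other 2 depots. Sema6d had 7.82, 10.4 and 12.8 CPM against 24.7, 24.0 and 27.5 CPM (-1.29 ± 0.22 log2, adjusted p = 2.47e-05), and Sema6a 5.07, 9.01 and 12.4 CPM against 25.4, 18.7 and 21.7 CPM (-1.31 ± 0.27 log2, adjusted p = 0.000422). None of these omentum groups overlapped. Plxna1, a plexin used by several class 3 and class 6 semaphorins, was lower in epididymal mesothelial cells, at 14.7, 11.8 and 11.6 CPM against 32.4, 38.4 and 33.3 CPM in epididymal fibroblasts (-1.45 ± 0.22 log2, adjusted p = 2.71e-06). Sema3b was called higher in mesothelial cells of omentum and not in the other 2 depots, at 38.8, 41.2 and 44.7 CPM against 22.8, 15.7 and 19.0 CPM in omentum fibroblasts (1.12 ± 0.24 log2, adjusted p = 0.000515), and it came to 0.85 log2 without omentum fibroblast library 2.

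Efna5 was lowest in omentum in both cell types. It had 35.0, 107 and 118 CPM in omentum mesothelial cells, 162, 146 and 362 CPM in mesentery mesothelial cells and 140.0, 150.0 and 165 CPM in epididymal mesothelial cells. Mesentery and epididymal mesothelial cells overlapped and did not pass the test (0.56 ± 0.38 log2, adjusted p = 0.419), 1 mesentery library standing apart. Fibroblasts had 17.8, 24.1 and 24.1 CPM in omentum, 142, 167 and 153 CPM in mesentery and 48.5, 60.3 and 65.7 CPM in epididymal fat. The cell types stood apart in omentum (1.98 ± 0.39 log2, adjusted p = 0.000324) and epididymal fat (1.38 ± 0.38 log2, adjusted p = 0.00673) and overlapped in mesentery, where fibroblasts were highest.

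Ntn1, the secreted netrin, was the 1 member called in opposite directions. It had 35.7, 48.6 and 54.8 CPM in omentum mesothelial cells against 16.7, 19.6 and 21.4 CPM in omentum fibroblasts (1.27 ± 0.24 log2, adjusted p = 0.000155), and 25.7, 31.1 and 24.4 CPM in mesentery mesothelial cells against 68.2, 46.9 and 64.1 CPM in mesentery fibroblasts (-1.14 ± 0.24 log2, adjusted p = 0.00042). Neither pair of groups overlapped, and the difference between depots had an adjusted p of 2.37e-05. Without the acinar libraries, mesentery gave -1.04 log2, with only mesothelial library 3 against fibroblast library 2.

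**Figure D3:**
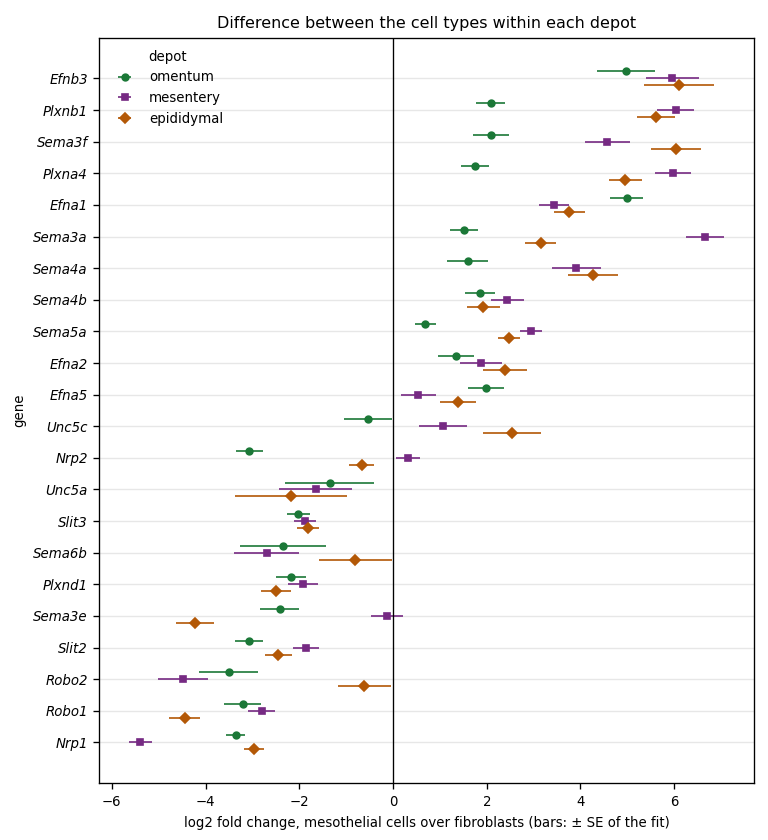
Difference between mesothelial cells and fibroblasts (log2, bars are 1 SE) in omentum, mesentery and epididymal fat for the 22 members called in the mean of the 3 depots. Sema3a, Plxna4 and Plxnb1 are smallest in omentum, Nrp1 is furthest below 0 in mesentery, and Sema3e is near 0 in mesentery (-0.13).

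Mesothelial cells were also compared with each other. Across the 3 depots 14 of 52 members were called, where 12.3% of all genes were. By pairs, 10 members were called in omentum against mesentery, 2 higher and 8 lower, where 5.15% of all genes were called, 2.36% higher and 2.79% lower. In omentum against epididymal fat 9 were called, 3 higher and 6 lower, where 10.4% of genes were called, 3.55% higher and 6.83% lower. In mesentery against epididymal fat 8 were called, 7 higher and 1 lower, where 4.18% of genes were called, 1.97% higher and 2.21% lower. The count for omentum against epididymal fat was 4 without omentum mesothelial library 2 and 5 without epididymal mesothelial library 1. Leaving out the acinar libraries takes out mesentery mesothelial libraries 1 and 2 and omentum mesothelial library 1. Mesentery is then left with library 3 alone, so a call kept or lost cannot be told from the loss of libraries.

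Mesentery mesothelial cells had the most Slit2, at 14.2 ± 2.87 CPM (SD, n = 3), against 4.69 ± 1.10 CPM in epididymal and 2.73 ± 1.03 CPM in omentum mesothelial cells (adjusted p across depots = 7.79e-07). They had the least Nrp1, at 7.63 ± 1.88 CPM against 24.9 ± 9.45 CPM in epididymal and 22 ± 3.99 CPM in omentum mesothelial cells (adjusted p = 5.58e-07). Sema3d was lowest in epididymal mesothelial cells, at 12.1 ± 0.875 CPM, with 43.0 ± 11.3 CPM in mesentery and 31.0 ± 3.56 CPM in omentum (adjusted p = 5.68e-06), and mesentery and omentum did not differ beyond their spread (adjusted p = 0.251). Nrp2 was lowest in omentum mesothelial cells, at 2.17 ± 0.35 CPM, with 9.71 ± 2.70 CPM in mesentery and 8.06 ± 1.82 CPM in epididymal fat (adjusted p = 3.85e-06). Nrp1 was thus lowest in mesentery and Nrp2 in omentum.

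Sema3e was at 6.9 ± 0.889 CPM in mesentery mesothelial cells, against 1.18 ± 0.532 CPM in epididymal fat and 0.996 ± 0.149 CPM in omentum (adjusted p = 1.48e-06). Sema6a, a membrane semaphorin that binds class A plexins, followed the same order of mesentery first, with 19.9 ± 3.97 CPM against 8.83 ± 3.67 CPM in omentum and 6.93 ± 1.60 CPM in epididymal fat (adjusted p = 0.000194). Its call between omentum and mesentery was lost without omentum mesothelial library 1 or mesentery mesothelial library 1 (adjusted p = 0.0526 to 0.107). Without the acinar libraries, which leaves only library 3 of mesentery, it was at -0.55 log2, and mesentery against epididymal fat at 1.25 log2. Sema6d was highest in epididymal fat, at 22.2 ± 2.64 CPM against 11.1 ± 1.68 CPM in mesentery and 10.3 ± 2.49 CPM in omentum (adjusted p = 0.000348), and its range of 1.10 log2 came down to 0.95 to 1.0, under the size for a call, without epididymal mesothelial library 1, without omentum mesothelial library 1 or without the acinar libraries. Sema4b, at 23.7 ± 11.4 CPM in omentum against 10.4 ± 2.02 CPM in mesentery and 10 ± 1.16 CPM in epididymal fat, rested on omentum mesothelial library 2 (35.3 CPM); without it the range was 0.85 log2 (adjusted p = 0.127). The summed leukocyte markers were 636 to 776 CPM in omentum, 843 to 1860 CPM in mesentery and 106 to 251 CPM in epididymal mesothelial cells, and their part in these differences was not tested.

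The second set of comparisons concerned fibroblasts of the 9 tissues. Across tissues 46 of 52 members were called, against 44.0% of all genes, and the median range between the highest and lowest tissue was 3.09 log2 for ligands and 3.46 log2 for receptors, against 1.82 log2 for all genes. Efna2, Efnb3, Plxnb3, Sema6b, Sema6c and Unc5d were not called. Each tissue was then set against the mean log2 level of the other 8, which weighs all 8 alike, so that a tissue can lie above that mean while its CPM lies under the plain average of the others. In bone 24 members were called, 21 higher and 3 lower, where 19.5% of all genes were called, 12.8% higher and 6.65% lower. In lymph node 27 were called, 15 higher and 12 lower, where 16.4% of all genes were called, 9.32% higher and 7.12% lower.

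Bone fibroblasts had by far the most Sema4d, known from mouse bone as an osteoclast product that holds back osteoblasts. They had 79.4, 105 and 124 CPM, while the other 22 fibroblast libraries ran from 0 to 3.54 CPM (7.37 ± 0.25 log2, adjusted p = 1.06e-24). Its receptor Plxnb1 was high in the same libraries, at 16.9, 24.1 and 19.9 CPM in bone, with 12.8, 15.4 and 12.7 CPM in lymph node and at most 7.6 CPM in the other tissues (4.03 ± 0.20 log2 for bone, adjusted p = 5.51e-18). Nrp2 had 278, 397 and 514 CPM in bone, against 41.9, 36.1 and 54.5 CPM in lymph node and 1.28 to 20 CPM in the other 7 tissues (5.32 ± 0.14 log2 for bone, adjusted p = 4.37e-25). For these 3 genes no library of another tissue came near the bone libraries except, for Plxnb1, those of lymph node.

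The netrin receptor Unc5b had 90.8, 96.7 and 108 CPM in bone and 0.894 to 8.23 CPM elsewhere (4.89 ± 0.18 log2, adjusted p = 4.58e-21). Robo2 had 70.7, 63.3 and 106 CPM in bone, against 47.3, 62.1 and 27.5 CPM in lymph node, 14.2 and 14.8 CPM in spleen, 10.7 and 16.2 CPM in pancreas, and at most 11.5 CPM in the 5 fat groups (4.58 ± 0.23 log2 for bone, adjusted p = 5.08e-17). Bone stood above every other tissue, though its lowest library was near the highest lymph node library. Sema3d had 146, 197 and 303 CPM in bone, against 3.53 to 86.5 CPM elsewhere, spleen being next (2.96 ± 0.14 log2, adjusted p = 3.92e-18). Sema7a, a lipid-anchored semaphorin, was at 4.38, 3.75 and 3.2 CPM in bone and at most 0.343 CPM elsewhere (5.62 ± 0.31 log2, adjusted p = 1.14e-19).

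Efna1 averaged 58.1 ± 1.51 CPM in bone fibroblasts and 10.2 CPM in the other 8 groups (2.62 ± 0.19 log2, adjusted p = 3.43e-13), and Robo1 32.1 ± 8.12 CPM in bone and 11.4 CPM in the others (1.71 ± 0.16 log2, adjusted p = 2.52e-10). The members lower in bone were Nrp1, at 118, 116 and 115 CPM against 157 to 725 CPM in the other tissues (-1.17 ± 0.16 log2, adjusted p = 4.65e-07), Slit3, at 50, 46.2 and 49.0 CPM against 55.2 to 239 CPM (-1.71 ± 0.20 log2, adjusted p = 1.6e-08), and Plxnc1 (-1.30 ± 0.39 log2, adjusted p = 0.011), which was not called without bone library 2 (adjusted p = 0.0938) or without the acinar libraries (adjusted p = 0.128). Bone therefore had the most Nrp2 and the least Nrp1 and Slit3 of the 9 tissues. The Schwann cell list summed to 249 to 332 CPM in bone and at most 82.8 CPM in other fibroblasts. That sum came from genes of the list other than Sox10, which was at 0 in all 3 bone libraries. The neuron list summed to 45.6 to 77.3 CPM in bone, and the part of both cell types in the bone values was not tested.

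Of the members under 10 CPM in every group, Dcc, Sema7a, Sema4f, Sema4g, Efna3, Efna4 and Efnb2 were highest in bone, and Ntng1 and Sema5b in lymph node. Others peaked elsewhere, such as Sema3g and Ntn4 in epididymal fibroblasts, Robo4 and Unc5a in pancreas fibroblasts and Efna2, Ntng2 and Plxnb3 in mesothelial cells. Dcc, the netrin receptor of axon attraction, had 1.96, 0.297 and 2.49 CPM in bone, the bone libraries differing several times among themselves, and at most 0.389 CPM in other fibroblasts (4.25 ± 0.43 log2, adjusted p = 7.3e-12). Ntng1, a lipid-anchored netrin-G that does not bind Dcc, had 3.66, 6.75 and 5.55 CPM in lymph node, against 1.25, 2.08 and 1.93 CPM in bone and at most 1.4 CPM elsewhere (4.53 ± 0.35 log2 for lymph node, adjusted p = 2.12e-13). The 8 members under 1 CPM in every group mean were Sema4g, Sema6b, Sema6c, Plxnb3, Slit1, Robo3, Unc5d and Efna3. Sema6c and Unc5d were called in none of the 20 comparisons.

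**Figure D4:**
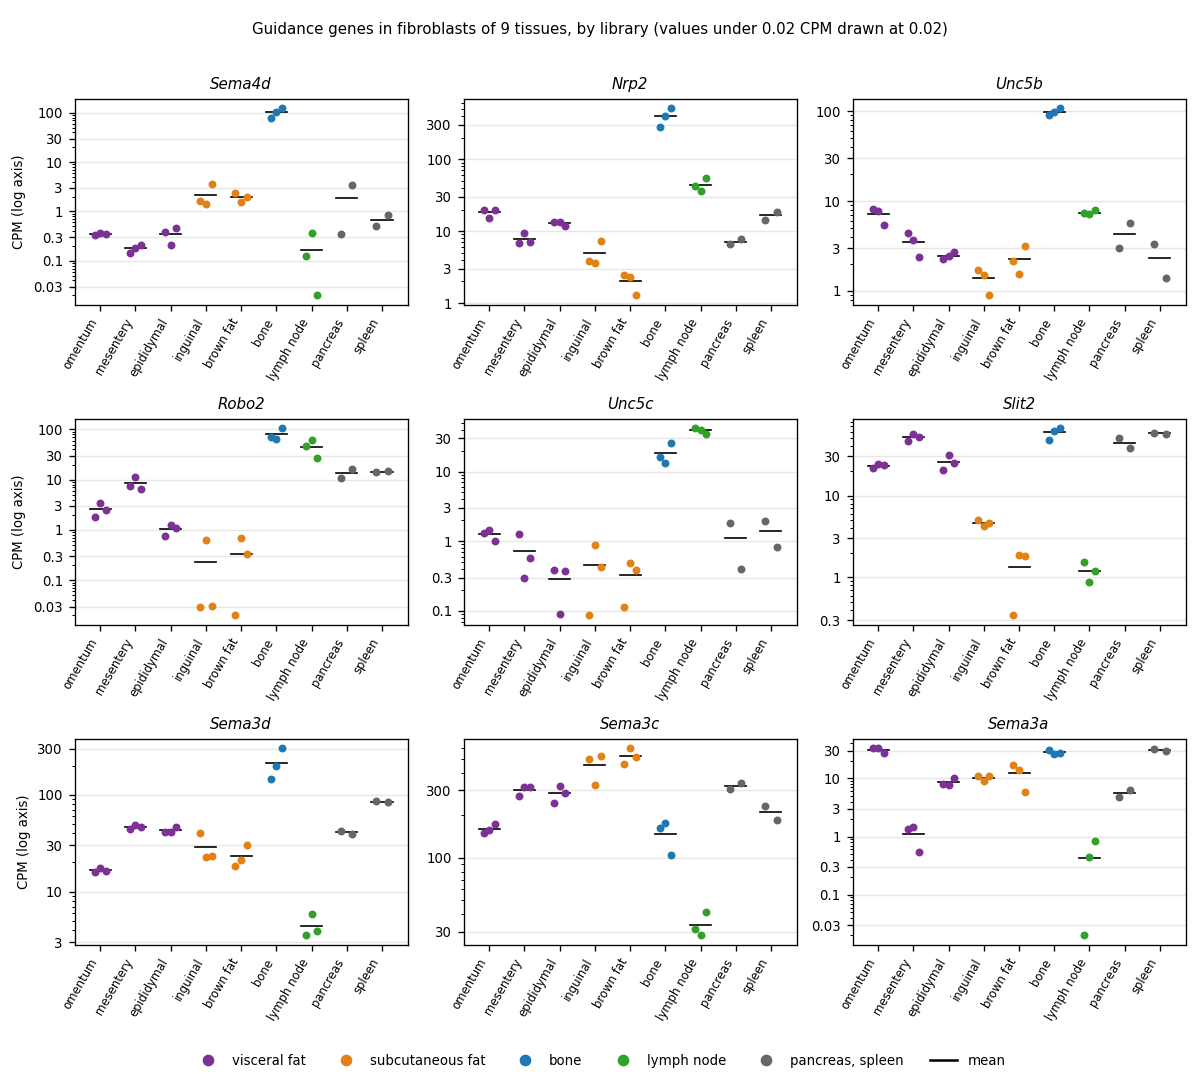
Level of 9 members in every fibroblast library of the 9 tissues (CPM, log axis; values under 0.02 drawn at 0.02), with a bar at each tissue's mean. Bone libraries sit highest for Sema4d, Nrp2, Unc5b, Robo2 and Sema3d, and lymph node libraries sit highest for Unc5c and lowest, by their mean, for Sema3c, Sema3d and Sema3a.

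Lymph node fibroblasts, from nodes labelled sLN, were high in receptors and low in secreted ligands. Of 19 receptors 11 were higher and 1 lower, while of 33 ligands 4 were higher and 11 lower, and of the 7 class 3 semaphorins 5 were lower and 1, Sema3f, was higher. The median was 1.21 log2 for receptors, -0.18 for ligands and -3.03 for class 3 semaphorins, against -0.04 for all genes. Unc5c, a netrin receptor known for repulsion, had 41.9, 39.5 and 35.1 CPM in lymph node, against 16.4, 13.2 and 25.9 CPM in bone and at most 1.92 CPM elsewhere (5.25 ± 0.23 log2 for lymph node, adjusted p = 1.01e-18). Its ligand Ntn1 had 3.32, 4.71 and 7.29 CPM in lymph node, below the 16.3 to 68.2 CPM of all other fibroblast libraries (-2.77 ± 0.24 log2, adjusted p = 1.78e-11). Receptor and ligand thus stood at opposite ends of the tissue order.

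Nrp1 had 596, 725 and 526 CPM in lymph node fibroblasts, against 115 to 359 CPM in all others (1.54 ± 0.13 log2, adjusted p = 1.12e-11). Plxnd1 had 32.6, 30.4 and 29.8 CPM against 6.04 to 15.5 CPM in the others (1.53 ± 0.19 log2, adjusted p = 8.95e-08), and Plxnb2 158, 191 and 158 CPM against 50.3 to 111 CPM (1.21 ± 0.12 log2, adjusted p = 6.07e-10). None of these 3 receptors overlapped any other tissue. Plxna2 averaged 32.5 ± 4.08 CPM in lymph node and 10.5 CPM in the others (1.83 ± 0.19 log2, adjusted p = 3.22e-09), and Sema5b, a membrane semaphorin that was near 0 elsewhere, 3.31 ± 1.60 CPM and 0.391 CPM (3.10 ± 0.30 log2, adjusted p = 2.67e-10).

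Most of the class 3 semaphorins were low in lymph node fibroblasts. Sema3c had 31.2, 28.3 and 41.2 CPM in lymph node, against 105 to 596 CPM in every other fibroblast library (-3.03 ± 0.18 log2, adjusted p = 1.98e-15). Sema3d had 3.53, 5.82 and 3.91 CPM against 15.9 to 303 CPM (-3.34 ± 0.24 log2, adjusted p = 2.35e-13), and Sema3e 0.768, 2.17 and 1.92 CPM against 4.1 to 32.8 CPM (-3.08 ± 0.35 log2, adjusted p = 1.07e-08). These 3 ligands were lower in each lymph node library than in any other fibroblast library. Sema3a had 0, 0.452 and 0.853 CPM in lymph node, overlapping only mesentery (-4.67 ± 0.40 log2, adjusted p = 2.61e-11), and Slit2 had 1.54, 0.875 and 1.21 CPM, overlapping only brown adipose tissue (-4.07 ± 0.31 log2, adjusted p = 9.89e-13). Mural cell markers summed to 1670 to 2000 CPM and leukocyte markers to 400 to 886 CPM in these libraries, and their part was not tested.

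The fat depots differed among themselves. Slit2 fibroblast levels fell into a visceral and a subcutaneous range, with 20.7 to 55.9 CPM in the 9 libraries of omentum, mesentery and epididymal fat and 0.345 to 5.06 CPM in the 6 of inguinal fat and brown adipose tissue (3.64 ± 0.21 log2, adjusted p = 1.02e-14). Visceral against subcutaneous fat gave 14 calls of 52, 9 higher and 5 lower, where 8.23% of all genes were called, 4.29% higher and 3.94% lower, and 8 of the 14 did not overlap, nor did 32.7% of all genes called. Robo2 averaged 4.07 CPM in visceral and 0.282 CPM in subcutaneous fibroblasts (3.36 ± 0.41 log2, adjusted p = 2.01e-07), Sema5a 58.7 and 15.8 CPM (1.76 ± 0.15 log2, adjusted p = 9.25e-11), and Nrp2 13.0 and 3.47 CPM (1.96 ± 0.19 log2, adjusted p = 7.07e-10). Lower in visceral fibroblasts were Sema3b, at 25.1 CPM against 88.0 CPM (-1.84 ± 0.15 log2, adjusted p = 1.98e-11), and Sema4d, at 0.294 CPM against 2.1 CPM (-2.89 ± 0.39 log2, adjusted p = 3.84e-07).

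These 6 genes kept their calls without the libraries that reached 1000 acinar CPM, which leaves out all of omentum and 2 of 3 mesentery libraries. The other 8 did not: Plxnb1 was then at 1.48 log2 (adjusted p = 0.198), Plxna4 at 0.65, Plxnc1 at 0.90, Unc5b at 0.81, Sema6a at 0.87, Sema3e at -0.89, Plxna1 at -0.75 and Sema3c at -0.65 log2. Sema3c, with 249 CPM in visceral and 488 CPM in subcutaneous fibroblasts (-1.02 ± 0.12 log2), also went to between -1.0 and -0.94 log2 without any 1 of 6 libraries: brown adipose 2, epididymal 1, inguinal 1 and 3, mesentery 1 and omentum 2. Plxna1, with 27.1 and 53.9 CPM (-1.05 ± 0.13 log2), went to -0.97 log2 without omentum library 2. Both genes were also under the size for a call with all libraries kept. Plxna1 was at -0.97 log2 with other size factors or DESeq2, -0.94 with no filter and -0.98 with only the libraries compared. Sema3c was at -0.95 log2 with other size factors or DESeq2, -0.92 with no filter and -0.96 with only the libraries compared.

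**Figure D5:**
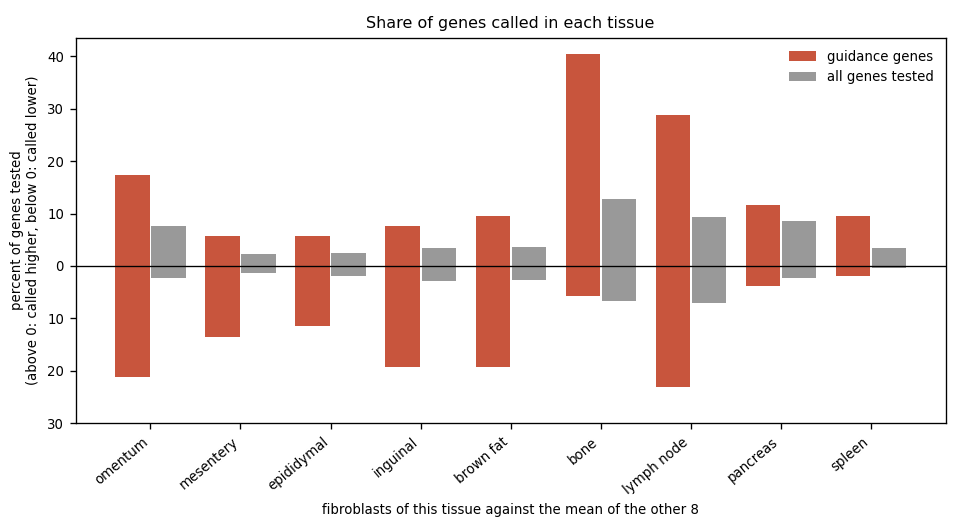
Share of the 52 tested members and of all 25705 tested genes called higher (above 0) or lower (below 0) in fibroblasts of each tissue against the mean of the other 8 (percent). Bone stands out by members called higher, 21 of 52, and lymph node by calls in both directions, 15 higher and 12 lower.

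Omentum fibroblasts gave 20 calls against the other 8 tissues, 9 higher and 11 lower, where 7.65% of all genes were higher and 2.38% lower. These libraries held 1260 to 4410 acinar CPM, and leaving out the acinar libraries leaves none of them. Higher were Sema3a (2.30 ± 0.20 log2), Sema3f (2.34 ± 0.30), Sema4a (2.27 ± 0.31), Plxna4 (2.24 ± 0.21) and Plxnb1 (2.09 ± 0.23), the genes that were also high in mesothelial cells, beside the mesothelial marker sums given above. Sema4c, a membrane semaphorin that was not, had 25.1, 20.2 and 30.5 CPM in omentum fibroblasts and 10.2 CPM on average in the others (1.39 ± 0.22 log2, adjusted p = 1.05e-05). Lower were Robo1, at 2.92 ± 0.48 CPM against 15.4 CPM (-2.18 ± 0.24 log2, adjusted p = 8.55e-09), and Efna1, at 4.32 ± 0.495 CPM against 17.6 CPM (-1.60 ± 0.27 log2, adjusted p = 3.53e-05).

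Mesentery fibroblasts gave 10 calls, 3 higher and 7 lower, where 3.5% of all genes were called, 2.19% higher and 1.31% lower. Among them were Slit2 (2.01 ± 0.18 log2) and Efna5 (1.55 ± 0.25) higher, and Sema3a (-3.06 ± 0.33) and Sema3b (-1.09 ± 0.19) lower. Leaving out the acinar libraries keeps only mesentery library 2, so that alternative cannot tell which calls hold. Sema3b came to -0.86 log2 without mesentery library 2. Epididymal fibroblasts gave 9, 3 higher and 6 lower, where 4.43% of genes were called, 2.5% higher and 1.93% lower, with Sema3e higher (1.18 ± 0.23 log2) and Robo2 (-2.45 ± 0.42) lower. Inguinal fibroblasts gave 14, 4 higher and 10 lower, where 6.3% of genes were called, 3.35% higher and 2.96% lower. Brown adipose fibroblasts gave 15, 5 higher and 10 lower, where 6.41% of genes were called, 3.66% higher and 2.75% lower. In both of these subcutaneous groups Robo2, Plxnb1, Slit2 and Nrp2 were lower, and Sema3c and Sema3e were higher: Sema3c had 500.0, 327 and 527 CPM in inguinal fat and 462, 596 and 516 CPM in brown adipose tissue.

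Spleen fibroblasts gave 6 calls, 5 higher and 1 lower, where 3.88% of genes were called, 3.47% higher and 0.416% lower, with Sema3a at 31.4 and 30.0 CPM (2.28 ± 0.23 log2), Slit2 at 57.9 and 56.6 CPM (2.19 ± 0.20), Plxna4 at 8.07 and 8.34 CPM (1.82 ± 0.25), Robo2 at 14.2 and 14.8 CPM (1.80 ± 0.31) and Sema3d at 86.5 and 83.7 CPM (1.45 ± 0.18). Robo2 in spleen did not pass with DESeq2 (adjusted p = 0.0855). Pancreas fibroblasts gave 8, 6 higher and 2 lower, where 11.0% of genes were called, 8.65% higher and 2.31% lower, and their 2 libraries stood apart from each other. Robo4 had 0.441 CPM in pancreas library 1 and 15.6 CPM in library 2, where the endothelial gene Pecam1 had 1.05 and 50.9 CPM. The 8 endothelial markers summed to 229 and 379 CPM in these libraries. Leukocyte markers summed to 19.6 and 419 CPM, erythroid markers to 1.53 and 69.6 CPM and acinar markers to 44600 and 158000 CPM. The fibroblast, Schwann and neuron sums were lower in library 2. The part of these cells in the pancreas values was not tested. Without library 2 Robo4 was at -0.89 log2, against 3.26 with it. Plxnb1 had 1.72 and 6.39 CPM in the same libraries and was at 0.17 log2 without library 2. Slit2, at 50.3 and 38.5 CPM, was the steadier pancreas call (1.78 ± 0.21 log2, adjusted p = 8.86e-08).

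The wider pathway was followed in 3 further lists. Of 14 Eph receptors, the kinases that bind ephrins, 12 were tested and 8 were called between mesothelial cells and fibroblasts of the 3 depots, 5 higher and 3 lower, with a median of 0.33 log2. Over all genes 21.4% were called in this comparison, 12.3% higher and 9.08% lower, with a median of 0.11 log2. Epha2, a main receptor of Efna1, averaged 41.8 CPM in mesothelial cells and 5.3 CPM in fibroblasts (3.75 ± 0.21 log2, adjusted p = 3.26e-17), and Epha1 33.9 and 7.18 CPM (2.28 ± 0.16 log2, adjusted p = 5.11e-14). Ephb6, which lacks kinase activity, had 40.1 CPM in mesothelial cells and 2.8 CPM in fibroblasts (3.87 ± 0.15 log2, adjusted p = 3.11e-20), whereas Ephb2 had 2.46 and 12.2 CPM (-2.23 ± 0.18 log2, adjusted p = 3.14e-12). Efna1 and the receptors Epha1 and Epha2 were therefore higher in the same cells. Epha3, another receptor of the A type, went the other way and was called lower in mesothelial cells. Without the acinar libraries Epha3 stood at -1.02 log2, in a fit that keeps only mesothelial library 3 and fibroblast library 2 of mesentery.

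Of 13 genes around RGM and netrin signalling, 10 were tested and 5 called, 3 higher and 2 lower, with a median of 0.52 log2, against the same 21.4% and 0.11 log2 over all genes. Neo1, a relative of Dcc that binds RGM proteins and netrin-1, had 121 CPM in mesothelial cells and 33.2 CPM in fibroblasts (1.89 ± 0.11 log2, adjusted p = 2.76e-16), and Flrt3, a ligand of Unc5 receptors and latrophilins, 11.8 and 115 CPM (-3.40 ± 0.17 log2, adjusted p = 6.25e-18). Flrt1 went the opposite way from Flrt3, at 72.0 and 5.95 CPM (4.31 ± 0.29 log2, adjusted p = 2.13e-13). Of 22 intracellular effectors 10 were called, 5 in each direction, with a median of -0.53 log2, where 21.4% of all genes were called. The 5 higher in mesothelial cells were Dpysl5, Rnd1, Mical2, Arhgef12 and Nck2, at 1.01 to 3.16 log2, and the 4 with the smallest adjusted p were all lower. Srgap1, a slit-Robo GTPase-activating protein, averaged 0.48 CPM in mesothelial cells and 13.7 CPM in fibroblasts (-4.92 ± 0.24 log2, adjusted p = 5.37e-18), the same direction as Slit2, Slit3, Robo1 and Robo2. Enah, an actin regulator (2.54 and 15.3 CPM), Mical1, an oxidoreductase acting downstream of plexins (18.2 and 61.4 CPM), and Fes, a kinase that binds plexins (3.82 and 13.0 CPM), were lower in mesothelial cells as well. Across the 9 fibroblast tissues, 10 of 12 Eph receptors, 10 of 10 of the RGM and netrin genes and 16 of 22 effectors were called, against the 44.0% of all genes.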

How the data were processed

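RNA from sorted mouse cells was sequenced in 34 libraries, and the authors deposited 1 table of read counts per gene for each library. Per the submitters' processing notes Salmon and GRCm38 were used, and per the file headers the values are counts; the step that gave whole counts is not given in the sources used here. All 34 libraries entered 1 fit with a coefficient per group in edgeR 4.0.16 (R 4.3.3, limma 3.58.1): trimmed-mean scaling, a filter at a minimum count of 10 by group, the quasi-likelihood test, and Benjamini-Hochberg adjustment over all 25705 genes kept. A gene was called at an adjusted p under 0.05 and a log2 change of at least 1, taken in tests over several groups as the largest minus the smallest group effect. CPM are scaled per-million counts, except for marker sums, which are unscaled. Tables and figures were made in Python 3.11.15 with pandas 2.3.3, numpy 2.4.6 and matplotlib 3.10.9. The comparison of mesothelial cells with fibroblasts was also run on simulated counts with known changes.

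The members, lists and tests were chosen with earlier results of these data known. Named members were those called at 10 CPM or more in order of change or p, with their ligands and receptors; Ntn1 and Sema3c in single depots, the tissue calls of members under 10 CPM, and the lower semaphorins and receptors under 10 CPM were named after their values were seen. Genes of the 3 further lists were up to 4 a list by smallest adjusted p. Libraries held 28651435 to 42335589 counts. Ntn3 was not analysed here. Alternatives were DESeq2 1.42.0, other size factors, no filter, only the libraries compared, a replicate block, leaving out each library, and leaving out the 11 libraries of at least 1000 acinar CPM; for comparisons left with fewer groups the last was chosen after seeing the data.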

Additional observations from a re-analysis of the deposited data

Results flagged for a closer look

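For 22 members the difference between mesothelial cells and fibroblasts itself differed between omentum, mesentery and epididymal fat, by a test of the interaction in the fit across all genes. The adjusted p of that test was 1.37e-08 for Sema3a, 7.95e-08 for Plxna4, 2.08e-07 for Plxnb1, 2.7e-07 for Nrp1, 3.83e-07 for Nrp2, 2.38e-06 for Sema3d, 4.4e-06 for Sema3e and 6.71e-06 for Sema5a. It was 2.37e-05 for Ntn1, 5.31e-05 for Sema6d, 0.000222 for Sema3f, 0.00085 for Sema4c, 0.00225 for Sema6a, 0.00296 for Sema3c, 0.0038 for Robo2 and 0.00988 for Sema4a. The range of the log2 difference over the 3 depots was 5.15 for Sema3a, 4.23 for Plxna4, 3.95 for Plxnb1, 3.94 for Sema3f and 3.39 for Nrp2.

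The other 6 had an adjusted p of 0.0278 for Unc5c, 0.0304 for Efna1, 0.0309 for Plxna1, 0.0344 for Robo1, 0.0344 for Sema3b and 0.0451 for Plxnb3, and each lost its call when single libraries were left out. Efna1 was lost without mesothelial library 1 of mesentery or 2 of omentum, or without fibroblast library 1 of mesentery or 1, 2 or 3 of omentum (adjusted p = 0.0541 to 0.123). Plxna1 was lost without mesothelial library 2 or 3 of omentum or 3 of epididymal fat, or without fibroblast library 1 or 2 of omentum or 2 of epididymal fat (0.0555 to 0.0995). Unc5c was lost without mesothelial library 1 or 2 of omentum or 3 of epididymal fat, or without fibroblast library 2 of omentum or 2 of epididymal fat (0.0519 to 0.0881). Robo1 was lost without mesothelial library 2 of omentum, 1 of mesentery or 2 of epididymal fat, or without fibroblast library 2 of omentum, 1 of mesentery or 1 or 2 of epididymal fat (0.0518 to 0.107). Sema3b was lost without mesothelial library 2 or 3 of omentum, 1 of mesentery or 1 or 3 of epididymal fat, or without fibroblast library 2 or 3 of omentum or 1 or 2 of epididymal fat (0.0556 to 0.139). Plxnb3 was lost without mesothelial library 1 or 2 of omentum, 1 of mesentery or 3 of epididymal fat, or without fibroblast library 1, 2 or 3 of omentum or mesentery or 3 of epididymal fat (0.0528 to 0.131).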

How the results depend on the processing

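For mesothelial cells against fibroblasts in the mean of the depots, a fit with the replicate number as a block called 5455 genes and 22 members, against 5504 and 22 without it. The main fit did not pair libraries by number. Of 177 same-numbered pairs, 44 had deviations correlated above 0.1 (range -0.397 to 0.522). Of the 34 libraries, 20 correlated best with their own number, where 11.4 would if all libraries of other groups were equally likely. These values cannot decide whether same-numbered libraries share animals. Without the 11 libraries that reached 1000 acinar CPM, mesothelial cells against fibroblasts of mesentery gave 2535 genes (4701 with them), members across mesothelial depots 9 (14), omentum against mesentery mesothelial cells 476 genes and 2 members (1323 and 10), and mesentery against epididymal fat 522 genes and 5 members (1074 and 8). Among fibroblasts, where this alternative was chosen after seeing the data, visceral against subcutaneous fat gave 1362 genes and 7 members (2116 and 14), and mesentery against the other tissues 560 genes and 4 members (899 and 10). A fit of only the libraries compared gave 1612 genes between omentum and epididymal mesothelial cells (2668), no filter gave 1904 between mesentery and epididymal fat (1074), and DESeq2 called 5 members in pancreas (8). Leaving out single libraries gave 1767 to 3417 genes for the difference between depots, 845 to 1428 for omentum against mesentery mesothelial cells, 1312 to 2792 genes and 4 to 9 members for omentum against epididymal fat, 1862 to 3064 genes for pancreas and 476 to 1068 for spleen. The 1 named result that changed sign was Robo4 in pancreas, at -0.89 log2 (adjusted p = 0.722) without library 2 and 4.24 without library 1. Of 314 named results, 67 changed their call under at least 1 alternative. The causes were not tested. Depth limits the members under 1 CPM.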
